A study of Homo sapiens with 9 samples.

Results

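The SOCS feedback inhibitors and the gp130 cytokine receptors were examined in uCaco-2 cells as 10 genes taken by symbol, SOCS1, SOCS2, SOCS3, SOCS4, SOCS5, SOCS6, CISH, IL6ST, OSMR and STAT3, of the 60591 symbols in the table of counts. All 10 were listed, and 9 of them were among the 15944 genes that passed the expression filter, the exception being OSMR. uCaco-2 is the name for Caco-2, a line from a human colon adenocarcinoma, before it has differentiated, and 1 tumour line cannot stand for the intestinal epithelium as a whole. The cells were kept for 24 h with 300 μM CoCl2, with 5 μM OD (an oxyquinoline derivative) or with neither, and 0.5% DMSO was stated for every condition. The stated stock of OD would bring less DMSO than that at this dose, so whether OD cells and controls had the same vehicle is not certain, and its part in the results was not tested. Each condition had 3 biological replicates. Both agents are used to stabilise the hypoxia-inducible factor HIF, CoCl2 as a chemical mimic of low oxygen and OD as an inhibitor of HIF prolyl hydroxylases, and the comparisons ask where the responses of the cells to them differ. The doses of the 2 agents differ, so each difference between them holds for these doses only.

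Cytokines of the interleukin-6 family signal through gp130, the receptor chain encoded by IL6ST, which pairs with a partner chain such as the interleukin-6 receptor IL6R or the oncostatin M receptor OSMR. The bound receptor activates JAK kinases, which phosphorylate STAT3, and STAT3 then enters the nucleus and switches on target genes. SOCS3 is one of these targets, and its protein binds gp130 and the kinases and shuts the signal off, which makes it the feedback brake of this receptor. SOCS1 restrains interferon signaling above all, and CISH and SOCS2 are induced by STAT5 and restrain growth hormone, prolactin and related receptors. SOCS4, SOCS5 and SOCS6 have long amino-terminal regions and are better known for acting on receptor tyrosine kinases. In the gut the IL-6 family is known for epithelial repair and for its part in colitis.

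The SOCS genes were first described as genes that STAT proteins induce, so the DNA before their starts is shown for feedback members, without bases annotated as a UTR. RefSeq windows on GRCh38.p14 were at hand for 8 of the 10 genes, and none for SOCS2 and SOCS5. The 250 bases before the start were searched on both strands for the STAT element TTCNNNGAA and for the core of the HIF element, ACGTG or GCGTG, which do not overlap each other in the windows shown. Capitals mark TTCNNNGAA in CISH and GCGTG in SOCS3, and SOCS1 held neither, so it has none. The sequences run 5′ to 3′ on the minus strand, which is the strand of all 3 genes, and lie at chr3:50611775-50611907 for CISH, the 133 bases nearest to its start, chr16:11256205-11256454 for SOCS1 and chr17:78360926-78361175 for SOCS3.
CISH: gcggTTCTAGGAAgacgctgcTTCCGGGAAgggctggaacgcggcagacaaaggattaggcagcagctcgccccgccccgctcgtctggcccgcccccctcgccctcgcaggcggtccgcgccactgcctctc
SOCS1: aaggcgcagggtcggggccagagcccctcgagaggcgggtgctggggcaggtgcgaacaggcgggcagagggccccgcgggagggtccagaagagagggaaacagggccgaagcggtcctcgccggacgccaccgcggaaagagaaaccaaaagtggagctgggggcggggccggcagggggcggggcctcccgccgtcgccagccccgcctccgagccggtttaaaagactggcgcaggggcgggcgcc
SOCS3: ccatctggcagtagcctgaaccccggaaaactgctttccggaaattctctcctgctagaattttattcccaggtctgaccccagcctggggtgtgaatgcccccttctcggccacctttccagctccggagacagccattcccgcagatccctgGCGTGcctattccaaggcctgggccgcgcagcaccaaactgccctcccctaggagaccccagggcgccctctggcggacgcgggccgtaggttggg
CISH held 4 matches to TTCNNNGAA, TTCCTGGAA, TTCTTGGAA, TTCTAGGAA and TTCCGGGAA, whose first bases lay 241, 230, 129 and 112 bases before the start. Of 35116 windows of this length, 6.57% held at least 1 match and 0.0142%, or 5 windows, held at least 4. None of the other windows of these genes held 1. The SOCS3 window shown belongs to a RefSeq start 848 bases upstream of the GENCODE start of the gene. Another RefSeq start of SOCS3, whose window is not shown, lies downstream of the GENCODE start. Neither window covers the 250 bases before the GENCODE start of SOCS3, which were therefore not searched. ACGTG or GCGTG stood in 43.2% of all windows, among them those of SOCS3, SOCS4 and STAT3. Genes of the opposite strand run through all 3 windows. MAPKAPK3 has 117 exonic bases in that of CISH, among them a UTR that is not shown and that holds the first 2 of the 4 matches, SOCS3-DT covers the window of SOCS3 with exons, and RMI2 spans that of SOCS1 without an exon in it. A match is a string of letters and says nothing of binding in these cells.

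Total counts were 15998136 to 18298190 per control library, 16286502 to 24209427 under CoCl2 and 16387054 to 19623776 under OD. Levels below are in CPM, that is counts scaled to the depth of their library and by the TMM factors of edgeR, which were 0.770 to 0.795 under CoCl2 and 1.11 to 1.15 in the other 6 libraries. Scaling by library size alone gave a median log2 fold change over all tested genes of -0.55 for CoCl2 against control in place of -0.049, so a small difference under CoCl2 depends on the scaling. Every library had 9451 to 12606 CPM over the 6 epithelial markers EPCAM, CDH1, KRT8, KRT18, VIL1 and CDX2, with all 6 genes tested. VIL1, the villin of brush borders, 44.2% of whose exon sequence overlaps USP37 on the opposite strand, had a log2 fold change of -2.45 under CoCl2. Of the leukocyte, endothelial and fibroblast markers, PTPRC, KDR and COL1A2 had at most 3 counts in each library. The fibroblast sum was 22.6 to 26.4 CPM in the controls, 18.2 to 20.7 under CoCl2 and 30.5 to 32.4 under OD, and its genes went apart under CoCl2, with log2 fold changes of -2.31 for PDGFRB and 0.69 for COL3A1. The leukocyte sum was 4.94 to 6.08 CPM in the controls, 5.72 to 5.85 under CoCl2 and 2.93 to 3.45 under OD, where CD14 fell (-1.08 on the log2 scale). The endothelial sum was 2.24 to 2.91 CPM in the controls, 1.36 to 1.70 under CoCl2 and 2.34 to 2.93 under OD. The part of these lists in the results was not tested. Genes were called differentially expressed at an adjusted p under 0.05 by edgeR's quasi-likelihood test with a fold change of more than 1 on the log2 scale in either direction, and all adjusted p below come from this test with Benjamini-Hochberg adjustment over the 15944 genes.

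SOCS3 was upregulated and SOCS2 had lower levels with both treatments, while SOCS5 was upregulated under CoCl2 alone. STAT3 was higher with both treatments and IL6ST lower under CoCl2, each by less than the fold threshold. OSMR was close to the detection limit in every library. With CoCl2, 2 of the 9 tested genes were called, both upregulated, against 43.2% of all tested genes called in either direction and 19.9% upregulated. With OD, SOCS3 was called upregulated and SOCS2 downregulated, 2 of 9, against 13.3% of all tested genes. Only SOCS5 of the 9 genes was called between CoCl2 and OD, against 41.3% of all tested genes, whereas scaling by library size alone called IL6ST in its place. These shares are of few genes and tell nothing particular to the family. By the adjusted p alone, 7 of the 9 genes passed under CoCl2, 4 higher and 3 lower, against 83.2% of all tested genes, 40.4% higher and 42.8% lower. Under OD 5 passed, 2 higher and 3 lower, against 65.6%, 32.3% higher and 33.3% lower. Between the treatments 6 passed, 5 of them higher under CoCl2 and 1 lower, against 83.5%, 40.2% and 43.2%. The libraries of CoCl2 and OD did not overlap for 6 of the 9 genes, against 83.8% of all tested genes.

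**Figure D1:**
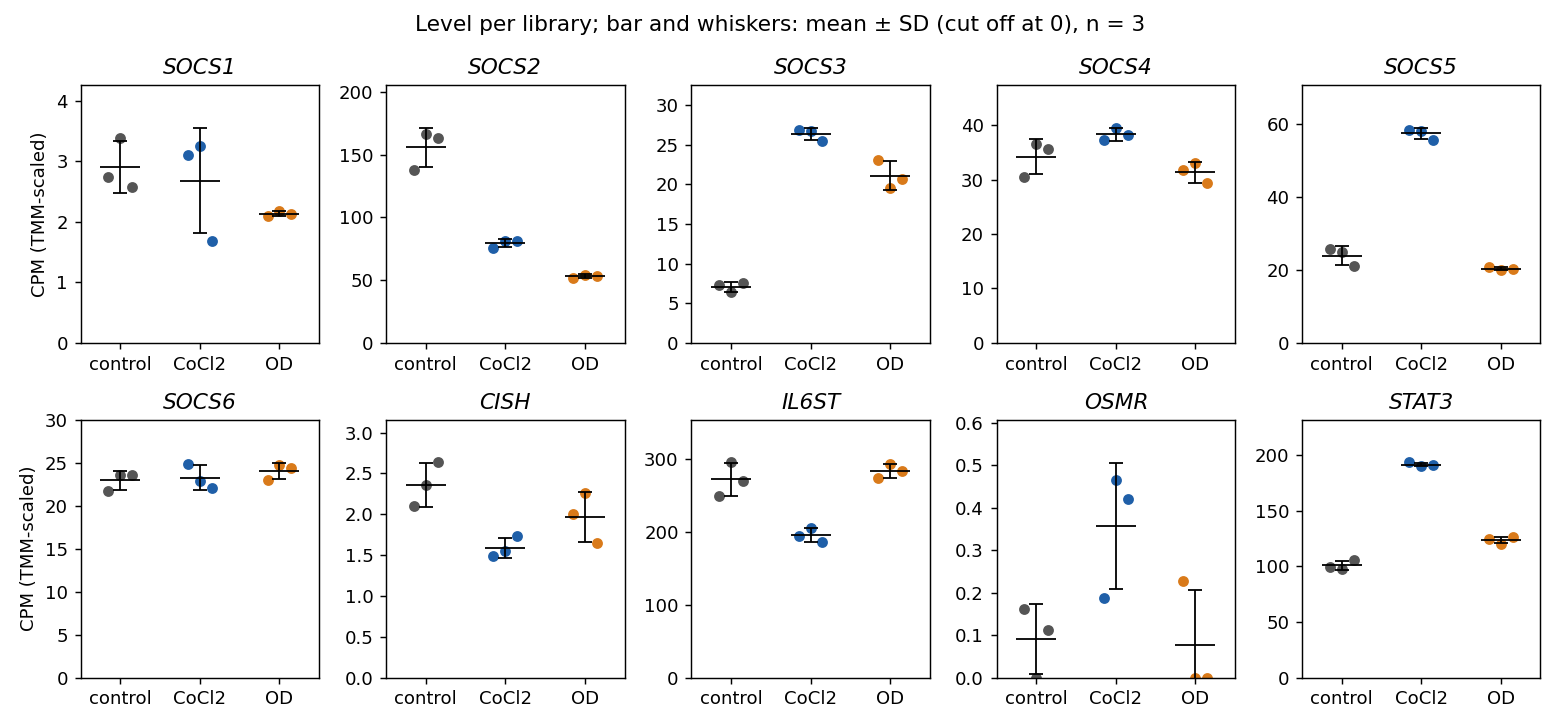
Level of each of the 10 genes in CPM (y axis, linear from 0, its own range in each panel) for the 3 control, 3 CoCl2 and 3 OD libraries (points), with the mean and SD of each condition (whiskers are cut off at 0). SOCS3 lies between 6.37 and 7.52 CPM in the controls and at 19.5 CPM or more in all 6 treated libraries, SOCS5 is higher than in the controls under CoCl2 alone, and OSMR stays under 0.5 CPM.

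SOCS3, on chromosome 17 (78356778 to 78360077, minus strand, GENCODE release 44 on GRCh38), had 7.37, 6.37 and 7.52 CPM in the controls, 26.9, 26.7 and 25.5 CPM under CoCl2 and 23.1, 19.5 and 20.7 CPM under OD. All 6 treated libraries lay above the 3 control libraries without overlap, as did those of 83.4% of all tested genes under CoCl2 and 68% under OD in one direction or the other. The log2 fold change was 1.90 under CoCl2 (standard error 0.091, adjusted p = 1.2e-28) and 1.58 under OD (standard error 0.091, adjusted p = 6.69e-24), or 3.73-fold and 2.99-fold. SOCS3 belongs to the core gene set that was chosen in the study partly on these libraries, so these rises are not independent evidence. The level was 0.32 higher under CoCl2 than under OD on the log2 scale (95% interval 0.17 to 0.47, adjusted p = 9.14e-05). With RLE size factors, another scaling, it was 0.36 higher (adjusted p = 1.43e-05). It was 0.23 lower on that scale when scaled by library size alone, so the order of the 2 treatments depended on the scaling.

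SOCS2, the STAT5-induced brake of growth hormone signaling, lies on the plus strand of chromosome 12 (93569814 to 93583487). Its level was 138, 166 and 163 CPM in the controls, 76.0, 81.6 and 81.0 CPM under CoCl2 and 51.8, 54.5 and 53.4 CPM under OD. The controls lay above all treated libraries, and the treatments did not overlap on this scale. Scaled by library size alone they did, at 58.4 to 64.7 CPM under CoCl2 and 58.8 to 62.6 CPM under OD. SOCS2 fell under OD, with a log2 fold change of -1.55 (standard error 0.053, adjusted p = 5.09e-33). With CoCl2 the log2 fold change was -0.97 (standard error 0.053, adjusted p = 1.43e-24), just short of the fold threshold of the call, and it was -1.05 without control replicate 1 and -1.48 when scaled by library size alone, both of which passed. The level under CoCl2 was 0.58 above that under OD on the log2 scale (95% interval 0.46 to 0.69, adjusted p = 6.11e-14). With RLE size factors, another scaling, it was 0.62 above (adjusted p = 6.38e-15). It was 0.032 above (adjusted p = 0.621) when scaled by library size alone, so this difference rests on scaling beyond library size.

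SOCS1 and CISH, the other members of the short feedback group, were low. SOCS1, on chromosome 16 (11254417 to 11256204, minus strand), had 46 to 69 counts in the controls, 32 to 50 under CoCl2 and 40 to 49 under OD. Its level was 2.90 ± 0.424 CPM (SD, n = 3) in the controls, 2.68 ± 0.870 under CoCl2 and 2.13 ± 0.043 under OD. The log2 fold change under CoCl2 was -0.17 (95% interval -0.56 to 0.22, adjusted p = 0.419) and turned to 0.12 without CoCl2 replicate 3, whose 1.68 CPM was the lowest of the 9 libraries. With OD it was -0.45 (95% interval -0.83 to -0.071, adjusted p = 0.0331), with the OD libraries below every control library. This p did not hold in DESeq2 (adjusted p = 0.218 on 9 libraries) or without control replicate 2 (adjusted p = 0.198), and it lay between 0.0571 and 0.0736 without any 1 of the OD libraries. CISH, on chromosome 3 (50606489 to 50611774, minus strand), had 39, 48 and 47 counts in the controls, 24, 20 and 33 under CoCl2 and 44, 51 and 31 under OD. In CPM these were 2.1, 2.35 and 2.64 in the controls, 1.49, 1.55 and 1.73 under CoCl2 and 2.00, 2.26 and 1.65 under OD. The CoCl2 libraries lay below the control libraries, with a log2 fold change of -0.56 (95% interval -0.99 to -0.13, adjusted p = 0.0149), and the OD libraries overlapped both. DESeq2 gave an adjusted p of 0.117 on 9 libraries and 0.136 on 6, and edgeR gave 0.0605 without control replicate 3 and 0.051 without CoCl2 replicate 1, so CISH passed by the adjusted p only in part of the fits. CISH passed the fold threshold under CoCl2 only when scaled by library size alone, at -1.06. Between CoCl2 and OD the log2 difference of CISH was -0.31 (95% interval -0.75 to 0.13, adjusted p = 0.179), and -0.85 (adjusted p = 0.000326) when scaled by library size alone.

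The long members differed among themselves. SOCS5, on chromosome 2 (46698952 to 46780245, plus strand), had 25.8, 24.9 and 21.0 CPM in the controls, 58.5, 58.3 and 55.8 CPM under CoCl2 and 20.8, 19.9 and 20.3 CPM under OD. All CoCl2 libraries were at more than 55 CPM and all others at less than 26 CPM. The OD libraries lay just below the controls without overlap, and those of 68% of all tested genes lay apart in either direction. Scaled by library size alone they overlapped, at 22.9 to 23.6 CPM under OD and 23.4 to 28.6 CPM in the controls. SOCS5 rose under CoCl2 by a log2 fold change of 1.26 (standard error 0.064, adjusted p = 3.56e-27) and had one of -0.24 under OD (standard error 0.071, adjusted p = 0.00305), where the adjusted p was 0.0583 without control replicate 1. The difference between the treatments itself was 1.5 (95% interval 1.37 to 1.63, adjusted p = 8.18e-31), or 2.82-fold. With library size as the only scaling it kept its sign, at 0.95 between the treatments and 0.76 under CoCl2 against control, both under the fold threshold.

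SOCS4, on chromosome 14 (55027230 to 55049489, plus strand), had 30.5, 36.5 and 35.6 CPM in the controls, 37.2, 39.5 and 38.2 CPM under CoCl2 and 31.8, 33.1 and 29.3 CPM under OD. Its log2 fold change was 0.16 under CoCl2 (95% interval 0.030 to 0.29, adjusted p = 0.0214) and turned to -0.35 when scaled by library size alone. DESeq2 on 9 libraries gave it an adjusted p of 0.058, and edgeR 0.244 without control replicate 1 and 0.0619 without CoCl2 replicate 2. Under OD it was -0.12 (95% interval -0.25 to 0.0072, adjusted p = 0.0914). SOCS6, on chromosome 18 (70289045 to 70330199, plus strand), had 21.7 to 23.6 CPM in the controls, 22.1 to 24.9 CPM under CoCl2 and 23.0 to 24.8 CPM under OD. The ranges of SOCS6 overlapped in all 3 comparisons. Its log2 fold changes were 0.016 under CoCl2 (95% interval -0.13 to 0.16) and 0.066 under OD (95% interval -0.074 to 0.21), and the former was -0.49 when scaled by library size alone.

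**Figure D2:**
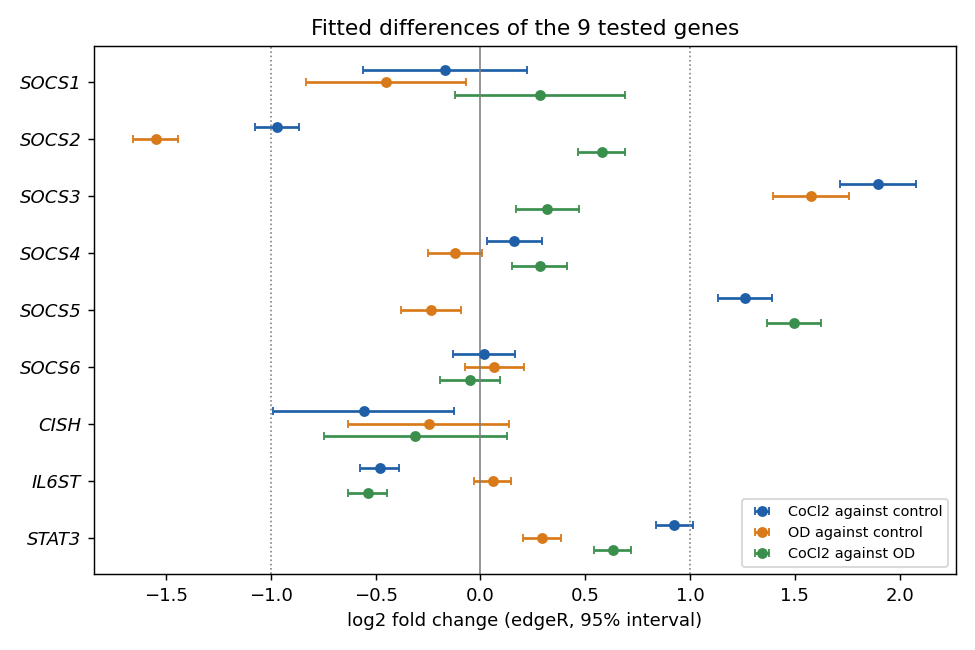
Fitted log2 fold changes (x axis) of the 9 tested genes (y axis) for CoCl2 against control, OD against control and CoCl2 against OD, as points with 95% intervals from edgeR's quasi-likelihood fit, with dotted lines at the fold threshold of 1 in size. SOCS3 lies right of the line with both treatments, SOCS2 left of it under OD at -1.55, and SOCS5 right of it under CoCl2 at 1.26 but not under OD at -0.24.

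The receptor chain gp130, encoded by IL6ST on chromosome 5 (55935095 to 55995022, minus strand), had 250, 295 and 270 CPM in the controls, 194, 205 and 186 CPM under CoCl2 and 274, 292 and 283 CPM under OD. The CoCl2 libraries were the 3 lowest, and the OD and control libraries overlapped. The log2 fold change was -0.48 under CoCl2 (standard error 0.046, adjusted p = 7.95e-14), -0.99 when scaled by library size alone, and 0.058 under OD (95% interval -0.032 to 0.15, adjusted p = 0.26). IL6ST was lower under CoCl2 than under OD by a log2 difference of -0.54 (95% interval -0.63 to -0.45, adjusted p = 1.22e-15), and by -1.08 when scaled by library size alone, which passed the fold threshold. In such bulk samples fewer cells with a transcript and less of it per cell cannot be told apart. OSMR, on chromosome 5 (38845858 to 38945596, plus strand), had 3, 0 and 2 counts in the controls, 3, 6 and 8 under CoCl2 and 5, 0 and 0 under OD. Over each condition these were a CPM without TMM scaling of 0.0979 in the controls (exact Poisson 95% interval 0.0318 to 0.228), 0.277 under CoCl2 (0.161 to 0.443) and 0.0903 under OD (0.0293 to 0.211), and these intervals cover counting error only. The exact two-sided permutation test of log2(CPM + 1) gave p = 0.1 for CoCl2 against control, the smallest value that 3 libraries against 3 allow, p = 1 for OD against control and p = 0.2 for CoCl2 against OD. The test could therefore not pass for CoCl2, whose 3 libraries lay above the controls at 0.187, 0.464 and 0.420 CPM against 0.161, 0 and 0.112. Without the expression filter edgeR called OSMR at 1.86 against control (adjusted p = 0.0317) and 2.01 against OD (adjusted p = 0.0175), and DESeq2 on 9 libraries did not (adjusted p = 0.142 and 0.105).

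STAT3, the transcription factor of the pathway, lies on the minus strand of chromosome 17 (42313324 to 42388540). It had 99.4, 97.4 and 106 CPM in the controls, 193, 190 and 191 CPM under CoCl2 and 124, 120 and 126 CPM under OD. The 3 conditions did not overlap, in the order control, OD and CoCl2. The log2 fold change was 0.93 under CoCl2 (95% interval 0.84 to 1.01, adjusted p = 1.4e-28) and 0.29 under OD (95% interval 0.20 to 0.38, adjusted p = 4.25e-08), and CoCl2 exceeded OD by 0.63 (95% interval 0.54 to 0.72, adjusted p = 7.3e-21). None of these passed the fold threshold, and scaling by library size alone gave 0.42 under CoCl2 and 0.085 between the treatments (adjusted p = 0.0601).

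Per kilobase of annotated exon (the union over all transcripts of a gene, which understates genes whose long transcripts are unused), SOCS2 and IL6ST stood highest in the controls, at 24.1 ± 2.38 and 22.5 ± 1.90 CPM per kb (SD, n = 3), and their libraries overlapped. STAT3 followed at 9.0, SOCS4 at 4.86, SOCS6 at 3.93, SOCS5 at 3.19, SOCS3 at 2.59, SOCS1 at 1.62, CISH at 0.467 and OSMR at 0.0127 CPM per kb, each apart from the next by its libraries. With CoCl2 the order began with STAT3 at 17.1 and IL6ST at 16.2 CPM per kb, whose libraries overlapped, and SOCS3 came after SOCS2 at 9.65, above SOCS5 at 7.68. With OD, IL6ST led at 23.5 CPM per kb, and SOCS2 at 8.22 and SOCS3 at 7.72 overlapped, as did SOCS4 and SOCS6. SOCS1, CISH and OSMR were the 3 lowest in all 3 conditions.

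The make-up of the SOCS members within a library does not depend on the scaling between libraries. SOCS7, which is not a member, was left out of the shares and the sum below. Its mean level was 37.8 CPM in the controls, 36.5 under CoCl2 and 43.0 under OD. Of the counts per kb summed over the 6 SOCS genes and CISH, SOCS2 took 56.9% to 60.2% in the controls, 28.6% to 31.4% under CoCl2 and 27.3% to 29.2% under OD. The share of SOCS3 was 5.43% to 7.20% in the controls, 23.4% to 24.1% under CoCl2 and 24.8% to 28.9% under OD. SOCS5 took 18.6% to 19.1% under CoCl2 and 6.72% to 9.57% in the other 6 libraries. The shares of a library add up to a whole, so a smaller share of SOCS2 enlarges those of the others. The mean share of SOCS6 was 9.67% in the controls and 14.3% under OD, at a log2 fold change of 0.066. That of SOCS5 was 7.89% and 9.43%, at a log2 fold change of -0.24. A larger share is therefore not by itself a higher level, for SOCS3 as well. The 6 SOCS genes and CISH together summed to 249 ± 18.5 CPM in the controls (SD, n = 3), 229 ± 4.01 under CoCl2 and 154 ± 2.18 under OD. This sum depends on the scaling: by library size alone it was 253 to 294 CPM in the controls, 175 to 185 under CoCl2 and 174 to 179 under OD, where the treatments overlapped.

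**Figure D3:**
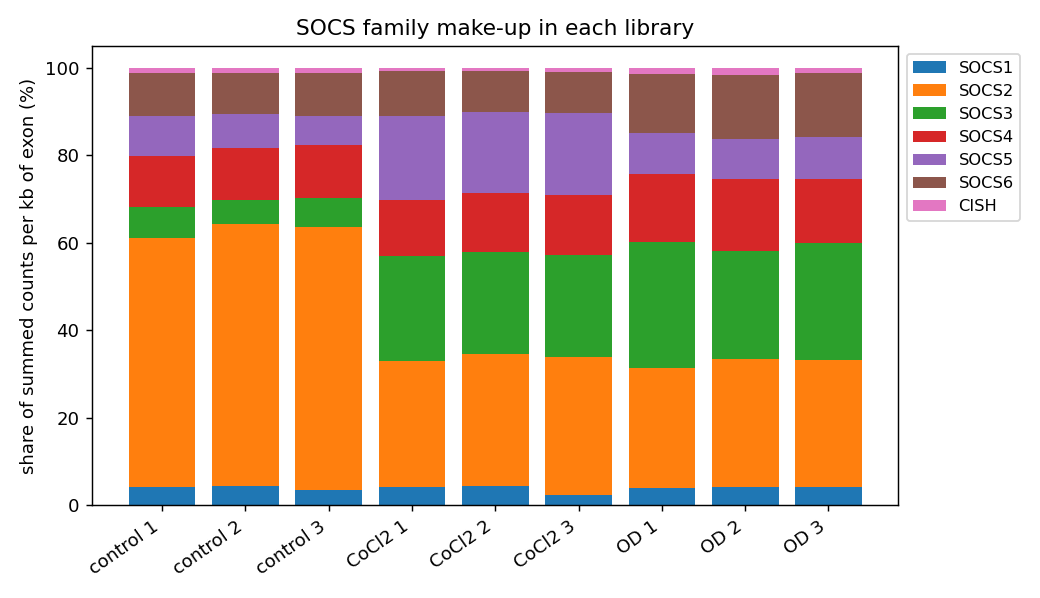
Stacked bars of the share (y axis, %) that each of the 6 SOCS genes and CISH takes of their summed counts per kb of exon, in each of the 9 libraries (x axis). SOCS2 fills 56.9% or more of every control bar and 31.4% or less of every treated bar, SOCS3 widens in all treated bars, and SOCS5 widens in the CoCl2 bars.

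Ratios of counts within a library are free of scaling in the same way. The pairs were chosen after their values were seen, so the exact tests of these ratios are not independent of the levels above. SOCS3 had 0.053, 0.038 and 0.046 counts for each count of SOCS2 in the controls, 0.355, 0.327 and 0.315 under CoCl2 and 0.446, 0.358 and 0.387 under OD. The log2 ratio was 2.87 higher under CoCl2 and 3.12 higher under OD than in the controls, each with p = 0.1 by the exact two-sided permutation test, the smallest it can give. SOCS5 had 0.591 to 0.847 counts for each count of SOCS4 in the controls, 1.46 to 1.57 under CoCl2 and 0.603 to 0.695 under OD. This log2 ratio was 1.21 higher under CoCl2 than under OD (exact permutation p = 0.1) and overlapped between OD and control (difference -0.11, exact permutation p = 0.7). STAT3 had 0.330 to 0.398 counts for each count of IL6ST in the controls, 0.928 to 1.02 under CoCl2 and 0.411 to 0.455 under OD, so that the 3 conditions did not overlap. Its log2 ratio was 1.40 higher under CoCl2 and 0.23 higher under OD than in the controls (exact permutation p = 0.1 for each).

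Annotated neighbours bear on what the counts can be assigned to, since the strand setting of the counting is not given in the sources used here. The paper names a stranded kit for its libraries, so the reads carry their strand, but whether the counting used it is not known. SOCS2-AS1, a long noncoding RNA on the opposite strand that shares 277 exonic bases with SOCS2 (4.28% of its exons), had 147 to 170 counts in the controls, 51 to 77 under CoCl2 and 52 to 62 under OD. SOCS2-AS1 fell with both treatments, with log2 fold changes of -1.08 under CoCl2 (standard error 0.128, adjusted p = 1.61e-11) and -1.62 under OD (standard error 0.129, adjusted p = 2.04e-17). Reads from SOCS2, which had 1003 to 3396 counts, and from this antisense gene cannot be told apart where they overlap if strand was ignored, and the part of such reads in either result was not tested. MAPKAPK3, a kinase gene on the other strand that shares 218 bases with CISH, had 1081 to 1196 counts in the controls, 198 to 344 under CoCl2 and 927 to 1096 under OD, far above CISH, and a log2 fold change of -1.84 under CoCl2 (adjusted p = 4.29e-35). Whether its reads enter the low counts of CISH was not tested. RICTOR, a subunit of mTORC2, shares 229 bases with OSMR and had 531 to 1555 counts, also far above OSMR, with a log2 fold change of 1.52 under CoCl2 (adjusted p = 8.87e-08), and its part in the counts of OSMR was not tested. WDHD1, whose start lies 125 bases from that of SOCS4, and RMI2, whose span covers SOCS1 without shared exons, had log2 fold changes of -1.02 and -2.24 under CoCl2, and SOCS4 and SOCS1 ones of 0.16 and -0.17. The value of WDHD1 was -0.96 without CoCl2 replicate 1.

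The genes whose profiles lay closest to a called member were sought over the 9 libraries among 13429 genes, as the Euclidean distance of log2 CPM centred on the control mean. Closest to SOCS3 were HECA, TFF1 and LPIN1, at distances of 0.24, 0.28 and 0.42. TFF1, a trefoil peptide of mucosal surfaces, had log2 fold changes of 1.97 under CoCl2 and 1.76 under OD, and LPIN1, a phosphatidate phosphatase, ones of 1.65 and 1.54. SOCS2-AS1 was the closest to SOCS2, at 0.30, followed by RRP9 at 0.42 and PIGW at 0.47. Closest to SOCS5 were UBR4, UBB and RTF2, at 0.19, 0.21 and 0.22. UBR4 is a ubiquitin ligase and UBB a ubiquitin gene, and their log2 fold changes were 1.32 and 1.20 under CoCl2 and -0.26 and -0.24 under OD. Scaling by library size alone put UBR4 and UBB under the fold threshold under CoCl2, as it did SOCS5, at 0.82 and 0.70.

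Other genes of the pathway were taken from 8 lists with 70 genes, of which 58 were tested. Of these, 14 were upregulated and 8 downregulated under CoCl2, against 19.9% and 23.4% of all tested genes. With OD 7 were upregulated and 1 was downregulated, against 9.09% and 4.16%. Between the treatments 9 were higher and 11 lower under CoCl2, against 17.5% and 23.8%. The same shares of all tested genes hold beside the calls of each list below, which are of few genes. The median log2 fold change over the 58 genes was 0.11 under CoCl2 and 0.26 under OD, and over all tested genes -0.049 and -0.010. Library size alone put the median over all tested genes under CoCl2 at -0.55. That shift exceeds 0.11, so the sign of the CoCl2 median of the 58 genes depends on the scaling.

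Among 9 ligands of gp130 receptors 6 were tested, and 3 were upregulated and 1 downregulated under CoCl2 and none called under OD. By the adjusted p alone 5 passed under OD, against 65.6% of all tested genes. CLCF1, a cardiotrophin-like cytokine, had 5.76, 5.34 and 5.78 CPM in the controls, 29.7, 26.7 and 27.2 CPM under CoCl2 and 10.2, 8.30 and 9.21 CPM under OD. Its log2 fold change was 2.31 under CoCl2 (standard error 0.094, adjusted p = 2.96e-32) and 0.72 under OD (standard error 0.109, adjusted p = 4.68e-08). IL11, a cytokine known for mucosal repair, had 0.505 to 0.646 CPM in the controls, 1.94 to 3.98 CPM under CoCl2 and 0.954 to 1.11 CPM under OD, and rose under CoCl2 by 2.25 on the log2 scale (standard error 0.273, adjusted p = 4.01e-11). CNTF rose under CoCl2, with a log2 fold change of 1.79, and had one of -0.58 under OD, while 38.5% of its exon sequence is also that of the read-through gene ZFP91-CNTF, which has 0 counts in the table. CTF1, cardiotrophin, had only 6 to 60 counts per library. It fell under CoCl2, at -1.28 on the log2 scale, and had 0.97 under OD. There it was called without control replicate 2, at 1.09, or without OD replicate 1, at 1.15. IL6 had at most 2 counts, OSM at most 5 and IL27 at most 3 in any library.

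Of the 7 partner chains 6 were tested, with 2 upregulated and 2 downregulated by CoCl2 and 3 upregulated by OD. IL6R, the chain that binds interleukin-6, had 8.72, 8.97 and 9.42 CPM in the controls, 43.3, 41.7 and 46.3 CPM under CoCl2 and 38.6, 42.1 and 38.4 CPM under OD. The treated libraries lay far above the control libraries. The log2 fold change was 2.28 under CoCl2 (standard error 0.077, adjusted p = 1.06e-36) and 2.14 under OD (standard error 0.076, adjusted p = 1.69e-34). IL6R had 0.030 to 0.035 counts for each count of IL6ST in the controls, 0.204 to 0.249 under CoCl2 and 0.136 to 0.144 under OD. The log2 ratio was 0.68 higher under CoCl2 than under OD (exact permutation p = 0.1), while the levels of IL6R differed by 0.14 (adjusted p = 0.0263) and by -0.40 when scaled by library size alone. CNTFR, the chain for ciliary neurotrophic factor, had only 1 to 49 counts per library and log2 fold changes of 1.77 under CoCl2 and 3.86 under OD. CNTFR was not called under CoCl2 without CoCl2 replicate 1, at 1.31. IL11RA and IL27RA fell under CoCl2, with log2 fold changes of -1.55 and -1.17. IL11RA had only 4 to 34 counts per library, and 32.5% of its exon sequence lies in another gene as well. IL31RA, which pairs with OSMR, had at most 5 counts per library.

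Among the JAK kinases none of the 3 tested was called with either treatment. JAK1 had log2 fold changes of 0.95 under CoCl2 and 0.44 under OD, JAK2 of 0.45 and 0.73, and TYK2 of -0.35 and 0.23, while JAK3 had at most 5 counts. Over the alternative fits the value of JAK1 under CoCl2 ranged from 0.449 to 1.005, just past the fold threshold at its upper end. Of the 6 other STAT genes, STAT4 rose under CoCl2 by 2.18 on the log2 scale from low counts and STAT6 had a log2 fold change of -1.11. STAT5A, a factor that induces CISH and SOCS2, was upregulated under OD at 1.17 (standard error 0.164, adjusted p = 4.92e-09) and had a value of -0.80 under CoCl2 (standard error 0.233, adjusted p = 0.00138), and the difference between the treatments was -1.98 (adjusted p = 2.44e-14). STAT5B, the more abundant STAT5 gene, had 54.8 ± 1.66 CPM (SD, n = 3) in the controls, 28.1 ± 0.797 under CoCl2 and 48.7 ± 0.248 under OD, with log2 fold changes of -0.96 and -0.17 (adjusted p = 5.49e-23 and 0.00442), neither of them called. The levels of STAT5A were low, at 2.11 ± 0.135 CPM (SD, n = 3) in the controls, 1.20 ± 0.244 under CoCl2 and 4.78 ± 0.608 under OD.

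SOCS proteins bind elongins B and C and cullin 5 with RNF7 through their SOCS box and so act as ubiquitin ligases. ELOC rose under CoCl2, with a log2 fold change of 1.70 (standard error 0.055, adjusted p = 1.85e-36), and RNF7 had 0.95, ELOB 0.31, CUL5 0.11 and SOCS7 -0.050, none of which was called. With OD the values were -0.29 for ELOC, -0.33 for RNF7, -0.30 for ELOB, -0.56 for CUL5 and 0.19 for SOCS7. All had an adjusted p under 0.05, as did 65.6% of all tested genes, and none was called. Between the treatments ELOC and RNF7 were called higher under CoCl2, by 1.99 and 1.28, the latter 0.73 and not called when scaled by library size alone. Of the 8 other brakes of the pathway, PIAS proteins and phosphatases, PIAS4 rose and PIAS3 fell under CoCl2 (1.07 and -1.04) and none was called under OD. PIAS3 missed the fold threshold without control replicate 3, at -0.98, and PIAS4 did so when scaled by library size alone, at 0.57.

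Of 17 target genes of STAT3 14 were tested, and 5 were upregulated and 3 downregulated under CoCl2 and 2 and 1 under OD. JUNB, an AP-1 subunit, had 6.94 to 9.37 CPM in the controls, 76.9 to 81.2 CPM under CoCl2 and 20.4 to 21.7 CPM under OD, and rose with both, by 3.24 (standard error 0.074, adjusted p = 7.92e-46) and 1.36 (standard error 0.085, adjusted p = 4.75e-22) on the log2 scale. PIM1, a kinase that promotes survival, had log2 fold changes of 2.1 under CoCl2 and 0.56 under OD. CCND1, cyclin D1, fell under CoCl2 with a log2 fold change of -1.74 and had one of 0.41 under OD, and CEBPD had -1.87 and -0.52. The other calls under CoCl2 were MCL1, CEBPB and TIMP1, upregulated, and FGG, downregulated. Those under OD were TIMP1, upregulated, and FGG, downregulated, and TIMP1 had only 3 to 25 counts per library. Thus the list did not move in one direction, with medians of 0.40 under CoCl2 and 0.13 under OD. Scaling by library size alone moved the median over all tested genes under CoCl2 from -0.049 to -0.55. That shift is larger than the median of 0.40, whose sign therefore depends on the scaling. It would also put MCL1, CEBPB and TIMP1, at 1.39, 1.31 and 1.12 under CoCl2, below the fold threshold. SERPINA3, LBP and HP, acute-phase genes of the liver, had at most 1, 3 and 8 counts per library.

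The 14 receptors of other cytokines had 10 tested genes. EPOR, the erythropoietin receptor, rose under OD by 1.48 on the log2 scale (standard error 0.132, adjusted p = 1.68e-15) and had a log2 fold change of -0.40 under CoCl2. IL2RG rose under CoCl2, at 1.09, but at 0.59 when scaled by library size alone was not called, and 51.3% of its exon sequence overlaps another gene. IL22RA1, the epithelial receptor chain for interleukin-22, had log2 fold changes of -0.97 under CoCl2 and 0.98 under OD, neither of them called. Both lay so near the threshold that leaving out single libraries, namely control replicate 3 or CoCl2 replicates 1 or 2 for CoCl2 and control replicates 1 or 2 or OD replicate 1 for OD, gave calls, with values of up to -1.08 and 1.06. It was called lower under CoCl2 than under OD, by a log2 difference of -1.95 (95% interval -2.26 to -1.65, adjusted p = 2.01e-18). IFNAR2, with only 8 to 62 counts per library, was called between the treatments too, at -1.23. GHR and PRLR, receptors whose signal CISH and SOCS2 restrain, had at most 4 and 8 counts per library, and CSF2RB had none.

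**Figure D4:**
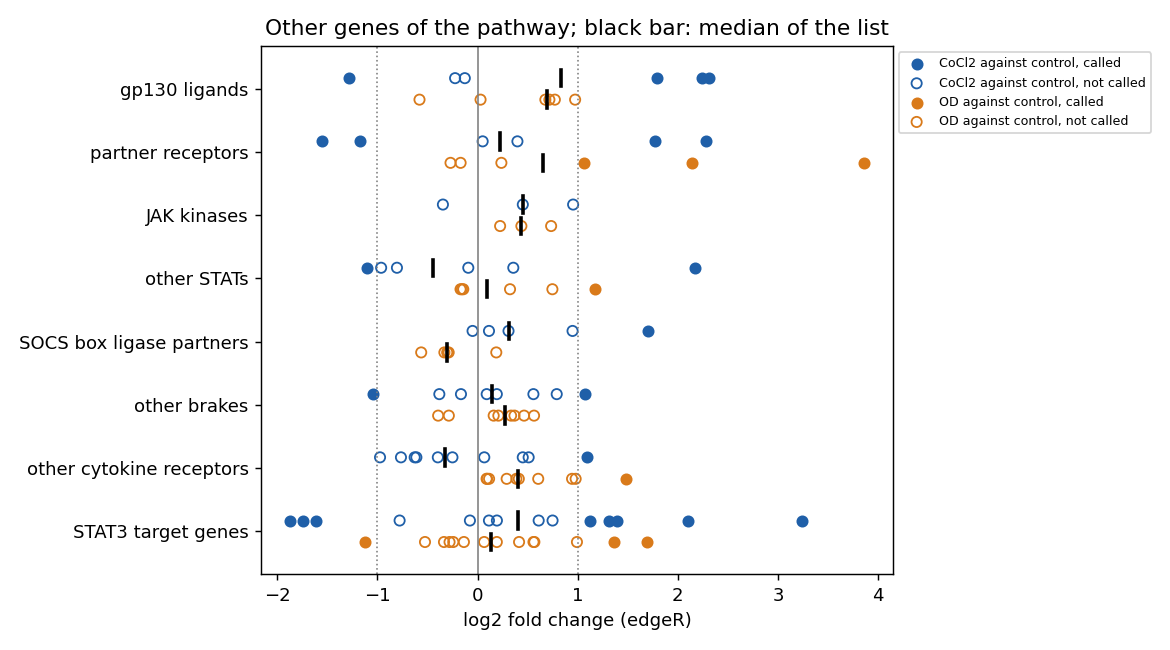
Log2 fold change (x axis) of each tested gene of the 8 pathway lists (y axis) under CoCl2 and under OD against control, filled where called and open where not, with the median of each list as a black bar and dotted lines at 1 in size. With CoCl2 the ligands, partner receptors and STAT3 target genes spread to both sides, from -1.87 for CEBPD to 3.24 for JUNB, and under OD 7 of the 58 genes are filled on the right and 1 on the left.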

How the data were processed

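Messenger RNA was measured in 9 libraries of uCaco-2 cells, 3 per condition. Per the submitters' processing notes, the authors checked reads with FastQC 0.11.9, trimmed adapters with cutadapt 2.10 and mapped them on GRCh38 with STAR 2.7.5b. They counted them on GENCODE release 34. The deposited values are raw counts per gene symbol without normalization, and neither the counting tool nor its strand setting is given in the sources used here. All 9 columns were mapped to samples by their titles.

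TMM factors came from edgeR 4.0.16 (R 4.3.3), which also applied its expression filter and made a robust quasi-likelihood fit over all libraries with 1 mean per condition, for 3 comparisons. A call needed a Benjamini-Hochberg adjusted p below 0.05 together with a log2 fold change beyond 1 in either direction. Positions and exon lengths were read from GENCODE release 44 (GRCh38), in which the symbols of 14225 of 15944 tested genes were found, and promoter windows from RefSeq. The nearest profiles used log2(CPM + 0.5) of genes averaging 1 CPM or more. The fit was tested on simulated data, in which few genes changed and as many rose as fell. That test does not bear on the scaling of the CoCl2 libraries.

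The members and lists were chosen with earlier results of these data known. Named beside the members were genes of each list called in any comparison and among its 4 largest changes, all genes of lists of up to 5, neighbours with a mean of at least 10 counts, and the 3 nearest profiles of called members. The ratios, the remaining called genes of the STAT3 target list, STAT5B, marker genes and list genes at low counts were named after their values were seen. Some single genes of the lists are counted but not reported here. Alternatives were fits on the 6 libraries compared, DESeq2 1.42.0 on 6 or 9 libraries, RLE factors, library size alone, no filter, a minimum of 10 counts per library, a replicate block, each library left out in turn, and the adjusted p alone.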

Additional observations from a re-analysis of the deposited data

How the results depend on the processing

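The 2 members called with CoCl2, the 2 with OD and the 1 between the treatments numbered 7, 5 and 6 by the adjusted p alone, and 4 with CoCl2 and 2 between the treatments without a filter on low counts, where OSMR was called with log2 fold changes of 1.86 and 2.01 from at most 8 counts per library. DESeq2 gave OSMR with CoCl2 an adjusted p of 0.142 on 9 libraries and 0.123 on 6. Scaled by library size alone and with at least 10 counts in every library 3 members were called with CoCl2. Leaving out each library in turn gave 2 to 3 members called with CoCl2, 2 with OD and 1 between the treatments. Same-numbered libraries did not deviate together (correlations of -0.00492 to 0.0376), so the numbers pair nothing, and with the replicate block 2, 2 and 1 members were called, as without it.

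Library size alone reversed the sign with CoCl2 against control for SOCS4 (-0.35), SOCS6 (-0.49), JAK2 (-0.052), ELOB (-0.196) and CUL5 (-0.39), and between CoCl2 and OD for SOCS1 (-0.26), SOCS3 (-0.23), SOCS4 (-0.26), IL6R (-0.40), JAK1 (-0.029), SOCS2-AS1 (-0.012), PIGW (-0.25), HECA (-0.23), TFF1 (-0.33) and LPIN1 (-0.43). This scaling lowers every value with CoCl2 alike. SOCS6 with CoCl2, near 0 and from -0.032 to 0.060 without 1 library, was also -0.049 without a filter, -0.013 with at least 10 counts, -0.024 without control replicate 1 and -0.032 without CoCl2 replicate 1. SOCS1 with CoCl2 ranged from -0.32 to 0.12 without 1 library, the latter without CoCl2 replicate 3, SOCS7 with CoCl2 was 0.00067 with RLE factors, and the log2 ratio of SOCS5 to SOCS4 with OD was 0.032 without control replicate 1. The difference of OSMR with OD from control on the log2(CPM + 1) scale was -0.025, from -0.12 to 0.025 without 1 library, and 0.025, 0.025 and 0.022 without OD replicates 2 and 3 and control replicate 1. Of 459 alternative values of the members 441 kept their direction and their side of the joint threshold on adjusted p and fold. Over the alternatives the calls among all genes ranged between 4717 and 13260 for CoCl2, between 1134 and 10466 for OD and between 4394 and 13311 for the treatments compared, the highest by the adjusted p alone. Counts of called genes of the short lists moved by over 1.5 times mostly by the adjusted p alone or library size alone. Genes near 40 counts, such as CISH and SOCS1, had log2 standard errors between 0.190 and 0.218, and STAT3 between 0.043 and 0.045.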
